A study of Mus musculus with 3 samples.

Results

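The data described here are the transcript counts of 10 glutathione genes in single cells of the mouse retina at 3 ages. The genes are Mgst1, Mgst3, Gpx1, Gpx4, Gstm1, Gsta4, Gstp1, Gclc, Gclm and Gsr, taken by symbol from the 32285 genes in the matrices, and all 10 were found. They were chosen by their shared role in glutathione chemistry with earlier results of the same data known, among them the high old to young ratio of Mgst1 CPM in endothelial cells. All values of the members are therefore given as a description. Retinas came from C57BL/6JRj mice, a commercial wild-type inbred strain, and the ages, called young, adult and old here, were 3, 12 and 23 months. No treatment or allele beyond this is named. The retinas of 2 mice were pooled at each age, vessels were pelleted out of the digest, and cells carrying CD31, a surface protein of endothelial cells, were enriched on magnetic beads. Neurons and glia among the cells are thus those left after depletion. Each age gave 1 library, so animals within an age cannot be separated, no difference between ages has a replicate check, and age and preparation cannot be told apart. The 3 libraries held 2491 to 3243 cell barcodes and 16577026 to 19977238 unique molecular identifiers (UMIs, each standing for 1 captured transcript).

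Glutathione is a small thiol peptide that cells keep in its reduced form as their main soluble reductant. Glutamate-cysteine ligase, built from a catalytic subunit (Gclc) and a modifier subunit (Gclm), makes its precursor in the rate-limiting step, and glutathione reductase (Gsr) restores the oxidised form with NADPH. Glutathione peroxidases spend it on peroxides: Gpx1 clears hydrogen peroxide in the cytosol, and Gpx4 reduces lipid hydroperoxides within membranes and is the main enzymatic guard against ferroptosis. Glutathione transferases couple it to electrophiles. Gstm1, Gsta4 and Gstp1 are cytosolic, Gsta4 preferring the lipid peroxidation product 4-hydroxynonenal, while Mgst1 and Mgst3 are membrane enzymes with both transferase and peroxidase activity. Several of these genes are known targets of NRF2, a transcription factor that binds antioxidant response elements, and the retina, rich in oxygen and polyunsaturated lipid, is a tissue in which Müller glia are regarded as the chief glutathione store.

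Sequences of 2 kinds are shown as background on the members. Gpx1 and Gpx4 are the members annotated with a selenocysteine codon, an in-frame TGA that is read as an amino acid in place of a stop. The stretches below are 45 coding bases from the GENCODE M21 transcripts Gpx1-201 and Gpx4-201 on GRCm38, with that codon in capitals, and 25 of the 45 bases are the same in both. The codon lies at chr9:108339451-108339453 in Gpx1 and at chr10:80054737-80054739 in Gpx4, each on the plus strand.
Gpx1: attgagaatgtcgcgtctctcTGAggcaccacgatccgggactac
Gpx4: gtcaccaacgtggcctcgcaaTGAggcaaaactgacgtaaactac

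The core of the antioxidant response element, TGACNNNGC, was searched on both strands in the RefSeq promoter windows of GRCm38.p6, which run from 250 bases before to 50 bases after each annotated start. Of the 10 members, 7 had a window, and the core was found in that of Gclm and in 1 of the 2 of Mgst1. By window this is 2 of 12, against 12.4% of all 32851 windows. By gene it is 2 of the 7 members with a window, against 14% of 27025 genes, and nothing is read from either count. Of the NRF2 genes listed further on, 6 of 22 windows hold the core (6 of 16 genes). The stretches below are printed on the plus strand, which is the strand of both genes, with the core in capitals as it reads there, since both copies lie on the opposite strand. The Mgst1 stretch is chr6:138140441-138140509 and the Gclm stretch chr3:122245393-122245461, and the core begins 56 and 134 bases before the RefSeq starts at chr6:138140527 and chr3:122245557. The GENCODE gene of Mgst1 starts upstream of that RefSeq start, at chr6:138140316, so the Mgst1 stretch lies inside it.
Mgst1: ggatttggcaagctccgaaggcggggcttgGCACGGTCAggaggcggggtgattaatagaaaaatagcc
Gclm: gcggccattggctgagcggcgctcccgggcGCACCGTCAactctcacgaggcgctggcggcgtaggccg
A match of these letters is a description and not evidence of binding.

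Once cells outside the limits on genes and mitochondrial UMIs and called doublets were left out, there were 1706, 1957 and 1697 cells in the young, adult and old library. Clusters were named from fixed markers and are called by cell type with the suffix "-like". The 6 classes compared are endothelial-like (505, 504 and 495 cells in the young, adult and old library), pericyte-like (169, 128 and 103), Müller glia-like (180, 214 and 206), rod-like (167, 322 and 237), cone-like (70, 102 and 71) and bipolar-like (201, 208 and 168). All 8 endothelial markers were present in the endothelial-like class of each library, at a summed 13583, 14123 and 14772 CPM (the UMIs of a gene for every 1000000 UMIs of the class in that library). Droplets with markers of both endothelial cells and pericytes (314, 252 and 220) were kept apart. So was a cluster of smooth muscle and pericyte genes (38, 37 and 37 cells). Adult and old libraries shared 2 barcodes among the cells kept, and the other pairs shared none.

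Levels are CPM of summed UMIs with exact 95% Poisson intervals. Ratios have exact conditional 95% intervals. These intervals hold the error of counting alone and nothing of the variation among mice or preparations. UMIs of a 3′ library count molecules without regard to transcript length, and no level is compared between genes.

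The peroxidases had opposite class patterns. Gpx4 (chr10:80047166-80056439 on GRCm38) was highest in rod-like cells, the cells whose outer segments are built of polyunsaturated membrane. From young to old it stood there at 1408 CPM (1304 to 1518), 1813 (1730.4 to 1899) and 1840.3 (1735 to 1951). Müller glia-like cells followed at 900.3, 1012 and 1050.2 CPM and cone-like cells at 748, 1023 and 999, and the ranges of the last 2 classes over the 3 libraries overlapped. In endothelial-like cells Gpx4 stood at 563, 639 and 639.5 CPM, or 0.4 (0.366 to 0.437), 0.353 and 0.348 of the rod level of the same library. Bipolar-like cells overlapped with endothelial-like cells in range, and pericyte-like cells were lowest at 403, 454 and 502 CPM.

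Gpx1 (chr9:108338903-108340343) was highest among the compared classes in endothelial-like cells, at 249 CPM (233 to 266), 282 (265 to 300) and 297 (281 to 315). This was 5.49 (4.33 to 7.05), 5.96 and 5.88 times the Müller glia level of the same libraries and 15 (7.58 to 34.9), 10 and 11.4 times the rod level. Pericyte-like cells came second at 84.8, 159.9 and 144 CPM, and the cluster of smooth muscle and pericyte genes held 267, 369 and 329. Rod-like cells, highest for Gpx4, were lowest for Gpx1, with 8, 28 and 16 UMIs.

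The membrane transferases also divided by class. Mgst1 (chr6:138140316-138156755) was highest in Müller glia-like cells, at 117 CPM (101 to 135), 140.5 (124 to 158) and 111 (95.5 to 129). Endothelial-like cells were second, and their level in the young, adult and old library was 0.148 (0.109 to 0.199), 0.231 (0.184 to 0.288) and 0.466 (0.379 to 0.574) of the Müller glia level. In the other classes Mgst1 was close to the floor. Bipolar-like cells had 0 UMIs in each library, which allows up to 2.29, 2.12 and 2.73 CPM (3 counts of the total), and the smooth muscle and pericyte cluster also had 0. Pericyte-like cells had 0, 3 and 0 UMIs, cone-like cells 0, 1 and 0, and rod-like cells 1, 1 and 3.

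Mgst3 (chr1:167371966-167393841) was highest in cone-like cells, at 185 CPM (149 to 227), 215 (181 to 253) and 279 (234 to 329). Next among the 6 classes were pericyte-like cells at 144, 132 and 164, and the cluster of smooth muscle and pericyte genes held 166, 178 and 162. Endothelial-like cells held 55.9, 60.3 and 59.1 CPM, bipolar-like cells 25.1, 31.1 and 37.2, and Müller glia-like cells 22.4, 23.2 and 18.2. Rod-like cells were lowest at 8.3, 13 and 9.77 CPM. The ranges of neighbouring classes in this order did not overlap over the 3 libraries.

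Of the cytosolic transferases, Gsta4 and Gstm1 were highest in Müller glia-like cells. For Gstp1 no class led clearly, because its highest classes, rod-like and cone-like cells, overlapped in range. Gsta4 (chr9:78182774-78209349) was highest in Müller glia-like cells, at 187 CPM (167 to 209), 239 (218 to 262) and 288 (262 to 317), and second in endothelial-like cells, at 139, 132 and 143. The remaining classes held 0 to 29.3 CPM. Gstm1 (chr3:108012255-108017973) stood at 185, 207 and 210 CPM in Müller glia-like cells, at 106, 132 and 170 in pericyte-like cells and at 71.5, 87.9 and 75.6 in endothelial-like cells. It was nearly absent from bipolar-like cells, with 2, 5 and 4 UMIs, and from cone-like cells, with 0, 8 and 1. Gstp1 (chr19:4035407-4037985) was present in every class, from 77.4 CPM in young Müller glia-like cells to 170 in old cone-like cells. In its order of classes the ranges of all neighbours overlapped except those of bipolar-like and Müller glia-like cells. Gstm1 and Gstp1 belong to families with near-identical relatives among which reads may be divided, so their levels are uncertain.

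Both subunits of the synthesis enzyme were highest in Müller glia-like cells. Gclm (chr3:122245557-122270732) stood there at 137, 150.3 and 162 CPM and in endothelial-like cells at 122, 124 and 126, against 18.3 to 49.5 in the other 4 classes. Gclc (chr9:77754535-77794485) stood at 45.3, 46.3 and 37 CPM in Müller glia-like cells, and at 11 to 22.9 CPM in the other classes, where the ranges of neighbours in the order overlapped. Gclm overlaps the annotated genes Gm6061 and Gm17494, and Gsr overlaps Gm24727, so their UMIs are given as the authors assigned them. Gsr (chr8:33652523-33698163), the recycling enzyme, was highest among the 6 classes in endothelial-like cells, at 28.2, 34.1 and 34.1 CPM, and stood at 32.5, 19.4 and 36.2 in the cluster of smooth muscle and pericyte genes. The endothelial-like level was 1.13 (0.62 to 2.27), 3.4 (1.79 to 7.26) and 1.75 (0.967 to 3.46) times the rod-like level. This lead is within counting error in the young and old libraries. In Müller glia-like cells Gsr rested on 31, 17 and 18 UMIs, or 18.7, 8.75 and 11.7 CPM.

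**Figure D1:**
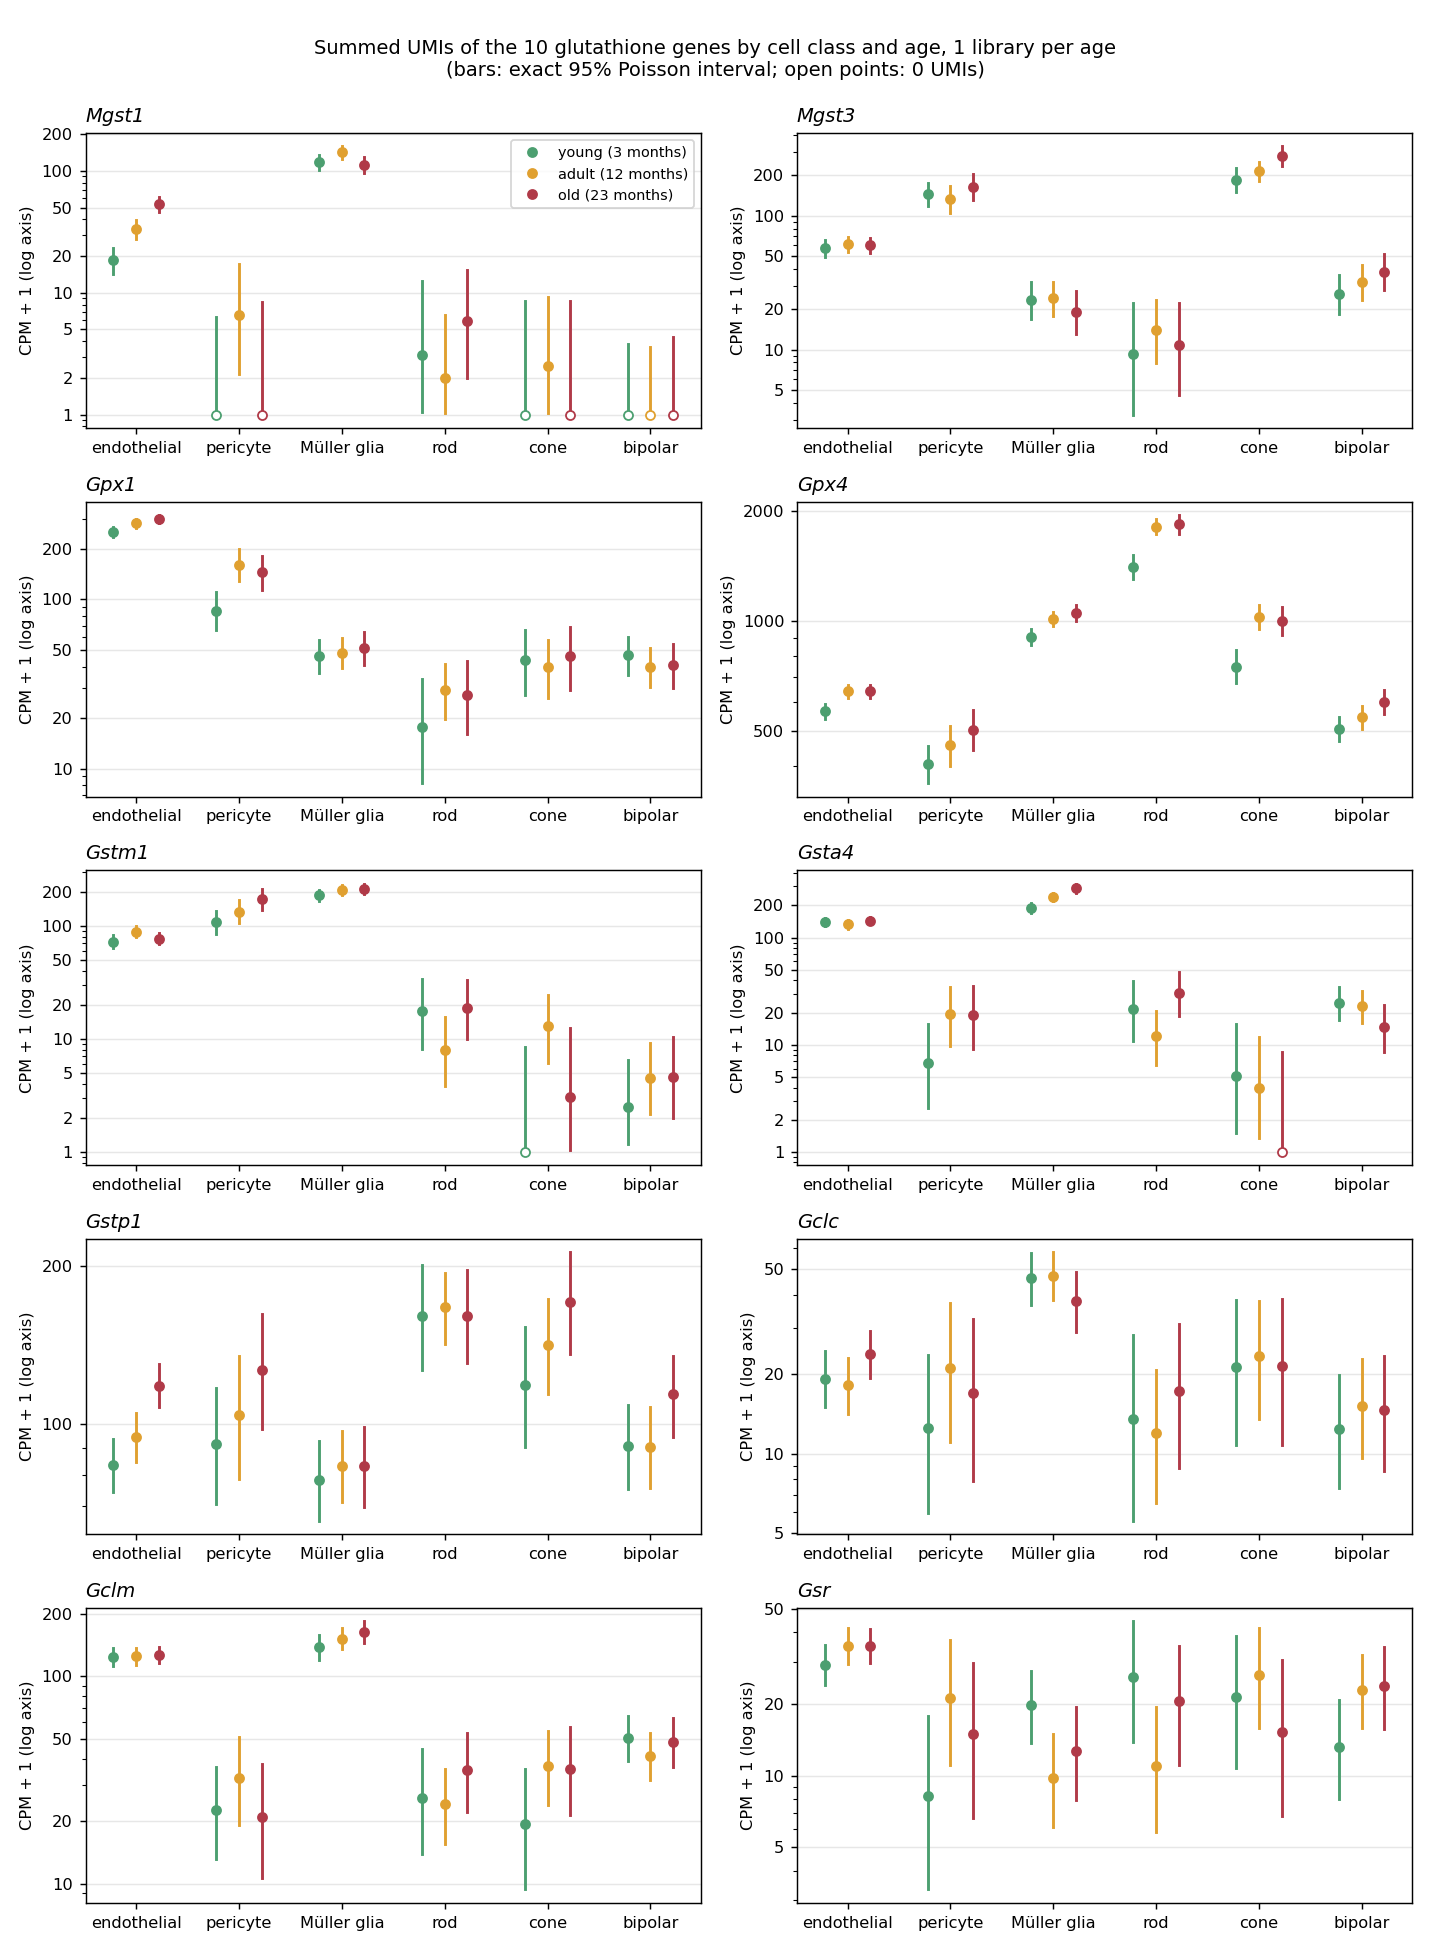
Level of each of the 10 genes in the 6 classes and 3 libraries, as CPM + 1 on a log axis, with exact 95% Poisson intervals and open points where no UMI was counted. Mgst1 is near the floor outside endothelial-like and Müller glia-like cells, Gpx4 is highest in rod-like cells, and Gpx1 is highest in endothelial-like cells.

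Within endothelial-like cells, Mgst1 differed most between ages. From young to old it stood at 17.4 CPM (13.2 to 22.4, 59 UMIs), 32.4 (26.7 to 38.9, 115 UMIs) and 52 (45.1 to 59.6, 204 UMIs), and the 3 intervals do not overlap. Old over young gave a ratio of 2.99 (2.23 to 4.07), adult over young 1.87 (1.35 to 2.6) and old over adult 1.6 (1.27 to 2.03). This ratio was known when the genes were listed.

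Of the other members, Gstp1 was at 82.7, 93.8 and 117 CPM, with an old to young ratio of 1.42 (1.22 to 1.65). Both peroxidases were already higher in the adult library. Gpx1 had a ratio of 1.19 (1.09 to 1.31) for old and 1.13 (1.03 to 1.24) for adult to young. Gpx4 had 1.14 (1.07 to 1.21) for each, and its old to adult ratio was 1 (0.945 to 1.06). Erythroid markers in the endothelial-like class stood at 531, 195 and 1296 CPM, and droplets with both endothelial and erythroid markers held Gpx1 at 495, 625 and 738 CPM, above the endothelial-like level in every library. The part of such RNA in the Gpx1 ratio was not tested. In the 67 young and 42 old cells with fewer than 2 UMIs of any other class's markers, the log2 ratio of Gpx1 was -0.35 in place of 0.26, on 44 and 18 UMIs, and that of Gpx4 was 0.38 in place of 0.18, on 103 and 70.

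Intervals that leave out 1 were thus found for 4 members, as for 21.8% of the 7340 endothelial genes with at least 100 UMIs over both libraries, and nothing is read from that count. The remaining 6 members had old to young intervals that include 1. The ratio was 1.26 (0.9 to 1.77) for Gclc, 1.21 (0.923 to 1.59) for Gsr, 1.06 (0.869 to 1.29) for Mgst3, 1.06 (0.89 to 1.26) for Gstm1, 1.04 (0.914 to 1.17) for Gsta4 and 1.03 (0.901 to 1.17) for Gclm. For Gsta4, Gclm, Mgst3 and Gstm1 the upper bound lies below 1.5-fold. Gstm1 was highest in the adult library, with an adult to young ratio of 1.23 (1.04 to 1.46).

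Past 1.5-fold in either direction was 1 of the 10 members, Mgst1, in the old to young contrast of endothelial-like cells. The same holds for 4.80% of the 7340 genes with at least 100 UMIs over both libraries, and because that contrast was known nothing is read from the count. In the adult to young contrast it was again 1 of 10, Mgst1, against 2.05% of 7178 genes. The median log2 ratio of old to young was 0.22 over the members and 0.03 over all such genes, and all 10 members lay above 0, as did 55.7% of all genes.

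**Figure D2:**
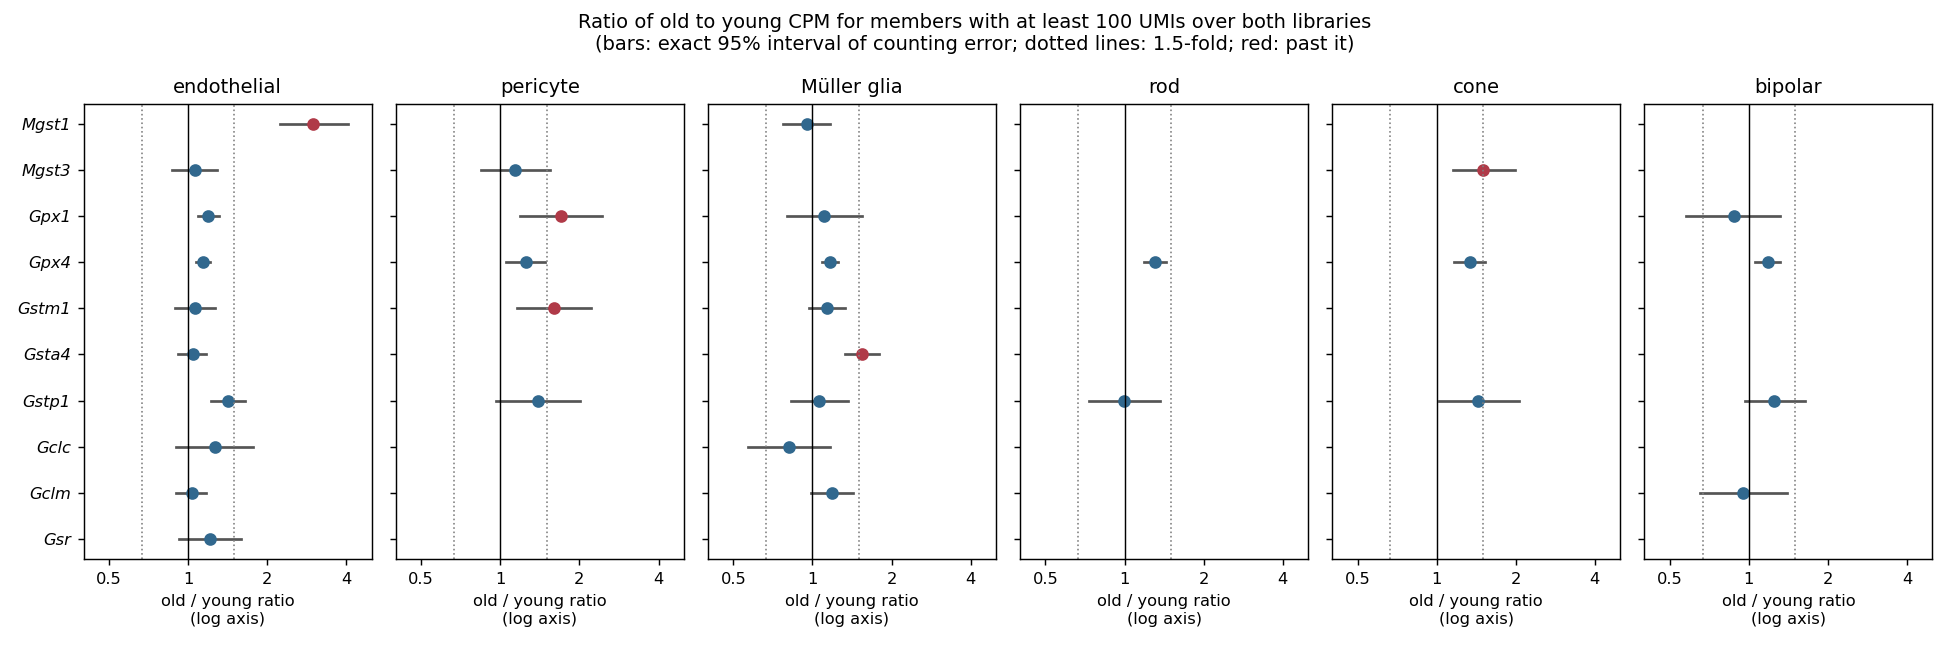
Ratio of old to young CPM with its exact 95% interval for each member with at least 100 UMIs over both libraries, by class, on a log axis. Mgst1 in endothelial-like cells, at 2.99, lies apart from the other ratios, and its ratio in Müller glia-like cells is 0.951.

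Endothelial-like cells with an Mgst1 UMI numbered 38 of 505, 69 of 504 and 106 of 495 from young to old, or 7.52, 13.7 and 21.4%, and a cell without a UMI may still hold the transcript. Cells were then thinned to 2000 UMIs, and those with fewer were left out, 41, 68 and 38 of the endothelial-like cells. The shares after thinning were 2.16% (1.04 to 3.93), 5.05% (3.19 to 7.54) and 7.88% (5.58 to 10.7). Rod-like cells, taken as a class that lacks the gene, gave 0.952, 0 and 1.4% after thinning, which left out 62, 105 and 94 of them. Their unthinned shares were 0.599, 0.311 and 1.27%, at median UMI counts of 2283, 2425.5 and 2161, against 5316, 5263.5 and 6593 in endothelial-like cells. Most cells with Mgst1 had a single UMI (26, 50 and 61 cells), and those with 4 or more numbered 2, 8 and 11. The 10 cells with most Mgst1 held 29, 46 and 57 UMIs, or 49.2, 40 and 27.9% of its total, from young to old. More cells with the transcript and more transcript per cell cannot be told apart at this depth. The cells with a UMI were themselves deeper, with median UMI counts of 9941, 7947 and 9905 against 5235, 5100 and 5946 in cells without it.

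Endothelial-like cells divided into 7 subclusters, of which 1 was arterial-like and 1 venous-like by fixed markers. The arterial-like subcluster, led by Gkn3, Clu and Egfl8, had the highest Mgst1 level in every library, at 100.2 CPM (66 to 146), 153 (111 to 206) and 167 (133 to 208). Its old to young ratio was 1.67 (1.07 to 2.68). In the venous-like subcluster, led by Cyp2e1, Il1r1 and Slc38a5, Mgst1 stood at 11.3, 27.1 and 46 CPM on 5, 8 and 26 UMIs, with a ratio of 4.07 (1.54 to 13.6). An unnamed subcluster led by S100a6 and Cdh13 held 15.9, 28.5 and 66.7 CPM, with a ratio of 4.2 (2.29 to 8.3). In the subcluster with the most cells, led by Rgcc and Cd320, the level was 10.1, 34.2 and 18.2 CPM, so there the adult and not the old library was highest, and the old to young interval of 0.658 to 5.15 includes 1. The interval also includes 1 in the subcluster led by Vtn and Abcc9, at 2.23 (0.829 to 6.96). The subclusters led by Gm26917 and by Myl9 had 0 young and 3 and 1 old Mgst1 UMIs, so they gave no finite ratio. Differences between these ratios were not tested. For Gstp1 the ratio was 1.75 (1.08 to 2.89) in the venous-like, 1.52 (1.13 to 2.05) in the S100a6 and 1.27 (0.844 to 1.95) in the arterial-like subcluster. Its intervals in the other 4 subclusters, with ratios from 1.2 to 2.49, include 1. For Gpx1 the interval lay above 1 in 3 of the 7 subclusters, with a ratio of 1.45 (1.13 to 1.88) in the venous-like and 1.26 (1.07 to 1.5) in the S100a6 one, and included 1 in the other 4, among them the arterial-like one at 0.967 (0.72 to 1.31). For Gpx4 it lay above 1 in 4 subclusters, with ratios from 1.17 to 2.58, and included 1 in the other 3, with 1.1 (0.93 to 1.3) in the venous-like and 0.885 (0.72 to 1.09) in the arterial-like one.

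The arterial-like subcluster made up 4.95, 5.75 and 10.5% of endothelial-like cells (25, 29 and 52 cells). With every subcluster given the weight it had in the young library, the Mgst1 ratio of old to young was 2.56, so it was somewhat smaller when this shift was held out. Members were kept out of the genes used for clustering, but the subclusters were cut from the same cells. The larger of the 2 clusters that formed the endothelial-like class gave a ratio of 3 (1.92 to 4.82), and the other one, led by arterial genes, gave 2.43 (1.63 to 3.71).

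**Figure D3:**
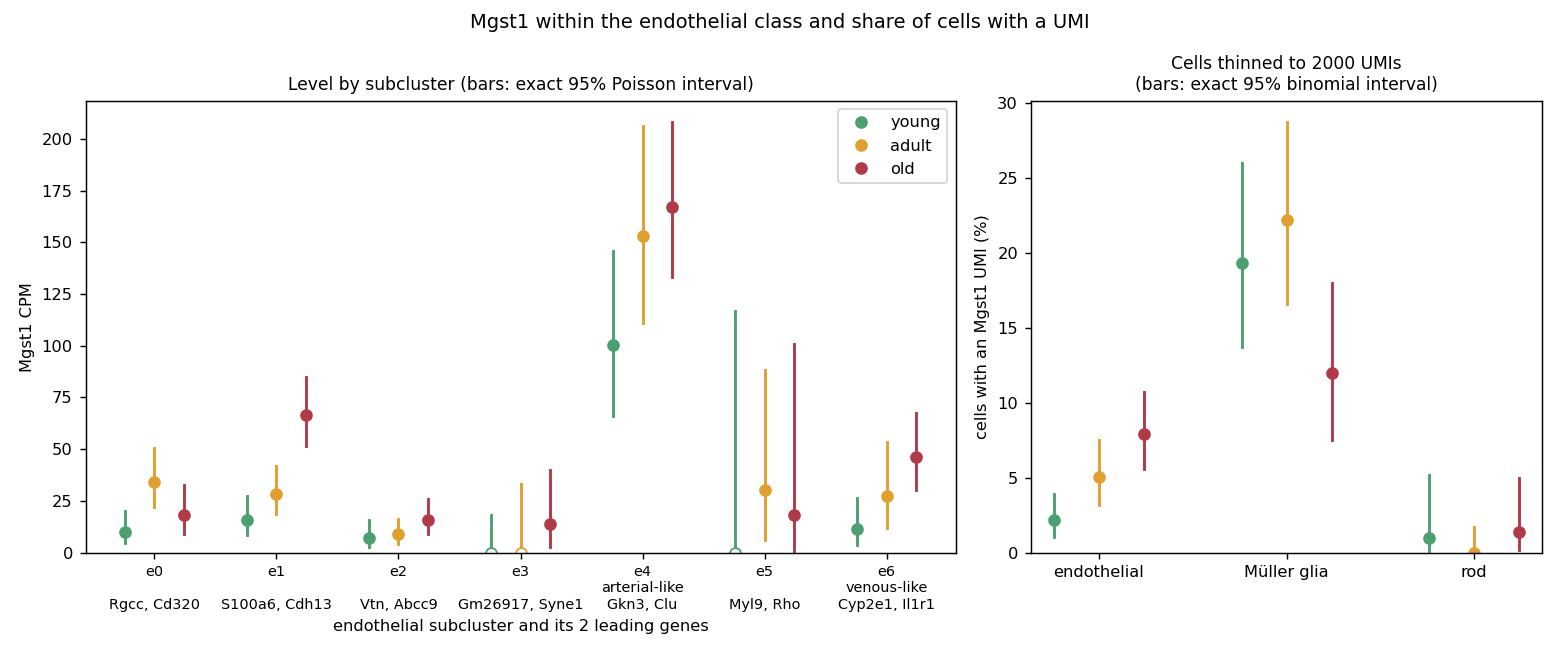
On the left, Mgst1 level in CPM in the 7 endothelial subclusters by library with exact 95% Poisson intervals, and on the right, the share of cells with an Mgst1 UMI after thinning to 2000 UMIs with exact binomial intervals. The arterial-like subcluster reaches 167 CPM in the old library, and the thinned endothelial share is 2.16, 5.05 and 7.88% from young to old.

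Because Müller glia express Mgst1 strongly, their markers were read in the endothelial-like class. The summed 8 markers stood at 723, 892 and 1080.4 CPM, of which Glul, a gene endothelial cells also contain, accounted for 696, 837 and 1025. Rlbp1, a visual cycle protein of Müller glia, was at 1.76, 1.69 and 4.84 CPM, against 3128, 3424 and 3357 in Müller glia-like cells. Of the 106 old endothelial-like cells with Mgst1, 5 held an Rlbp1 UMI. Without every cell that held one, the Mgst1 level was 17.7, 33 and 51.4 CPM. Retinal pigment epithelium markers stood at 1.18, 2.54 and 24.7 CPM in the same class, and without cells holding Rpe65, a defining enzyme of that epithelium, the level was 17.4, 32.4 and 51.1 CPM. Without cells holding the neutrophil genes S100a8 or S100a9 it was 17.2, 32.3 and 52. Of other cell types, the summed markers of pericytes stood highest in this class, at 1967, 2047 and 1381 CPM, and those of rods at 62.1, 139 and 134. Pericyte-like cells hold almost no Mgst1 but more Mgst3 and Gstm1 than endothelial-like cells, and the part of pericyte RNA in the endothelial ratios was not tested.

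In droplets with endothelial and pericyte markers Mgst1 stood at 14.4 CPM (11.1 to 18.4), 33.7 (28.2 to 40) and 36.6 (30.4 to 43.7), with an old to young ratio of 2.54 (1.86 to 3.48). There the adult and old libraries overlapped, with a ratio of 1.09 (0.842 to 1.4). These droplets come from the same 3 libraries and are not an independent check.

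Among members with at least 100 UMIs over both libraries, Gsta4 differed most between young and old in Müller glia-like cells. Its old to young ratio was 1.54 (1.33 to 1.79), its adult to young ratio 1.28 (1.1 to 1.48) and its old to adult ratio 1.21 (1.06 to 1.38). The young interval of its level, 167 to 209 CPM, lay below those of the adult and old libraries, which met at 262. Gpx4 had 1.17 (1.09 to 1.25), and Gclm 1.19 (0.987 to 1.43) and Gclc 0.815 (0.567 to 1.17) had intervals that include 1. Mgst1 had a ratio of 0.951 (0.77 to 1.17), an interval that lies below the endothelial one of 2.23 to 4.07, although the difference between the classes has no replicate test. Past 1.5-fold was 1 of the 8 members that had enough UMIs, against 4.28% of 4675 genes. Müller glia-like cells were shallower in the old library, with median UMI counts of 9171, 9467.5 and 6912. After thinning, the log2 ratio of Gstm1 went from 0.18 to 1.09, that of Gpx1 from 0.16 to -0.69 and that of Mgst1 from -0.07 to -0.62, while that of Gsta4, 0.63, lay between 0.53 and 0.65 over 8 alternatives and was under 1.5-fold in 3 of them.

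In pericyte-like cells, Gpx1 had an old to young ratio of 1.7 (1.19 to 2.44), on 59 and 72 UMIs, and an adult to young ratio of 1.89 (1.34 to 2.67). Gstm1 had 1.6 (1.16 to 2.21) on 74 and 85 UMIs. These were 2 of the 5 members with enough UMIs, against 7.03% of 1963 genes past the fold. With the mean CPM of single cells neither was past it, at log2 ratios of 0.44 and 0.51 in place of 0.76 and 0.68, and thinning put Gstm1 at 0.51. With classes set by the markers of each cell they stood at 1.27 and 1.25. Endothelial markers in this class stood at 881, 921 and 1196 CPM and erythroid markers at 20.1, 40.4 and 382, and their part in the Gpx1 ratio was not tested. In the cluster of smooth muscle and pericyte genes the Gpx1 ratio was 1.23 (0.922 to 1.65).

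In rod-like cells, Gpx4 had an old to young ratio of 1.31 (1.19 to 1.44) and an adult to young ratio of 1.29 (1.18 to 1.41), and Gstp1 had 0.998 (0.733 to 1.36), though its log2 ratio went from 0.00 to 0.73 with stricter limits on cells. Neither of these 2 members was past the fold, against 4.76% of 1598 genes. Cone-like cells had a similar Gpx4 ratio of 1.34 (1.16 to 1.53), and Mgst3, which cone-like cells led among the classes, had a ratio of 1.5 (1.15 to 1.98). It was 1 of 3 members past the fold, against 4.60% of 1607 genes, and was under the fold in 6 of 8 alternatives, at log2 ratios from 0.48 to 1.00 over all 8. Gstp1 in cones had 1.44 (1.02 to 2.05), but its log2 ratio of 0.53 went to -0.10 after thinning and to 1.88 with stricter limits on cells, so no direction is read. The young cone-like class also carried erythroid markers at 15057 CPM, against 31.3 and 22.5 in the adult and old libraries. In bipolar-like cells 0 of 4 members were past the fold, against 3.67% of 3951 genes, and Gpx4 had 1.18 (1.06 to 1.32).

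Gpx4 and Gstp1 were the 2 members with enough UMIs for a ratio in all 6 classes. The old to young interval of Gpx4 lay above 1 in each of them, with ratios from 1.14 in endothelial-like to 1.34 in cone-like cells, and that of Gstp1 in endothelial-like and cone-like cells. Of the 806 genes with enough UMIs in all 6 classes, 3 (0.372%) had every interval above 1, the others being Ckb and Gm10076, which are named after their values were seen. A count of genes with every interval above 1 was not planned in advance, and nothing is read from this share. In the old library Gpx4 had 251 to 2511 UMIs a class and Gstp1 63 to 461, and intervals narrow with UMIs. In the cluster of smooth muscle and pericyte genes the ratio was 1.15 (0.9 to 1.48). The ratios share the same pair of libraries and are not independent of each other. Pigment epithelium cells, which hold more Gpx4 than any class compared, numbered 2, 7 and 54, and their markers in rod-like cells stood at 0, 5.02 and 22.8 CPM. In cone-like cells these markers were at 4.07, 1.49 and 6.14 CPM. The part of their RNA in the Gpx4 ratios was not tested.

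The other redox genes were read in endothelial-like cells from 6 lists, 106 genes in all, of which 61 had at least 100 UMIs over the young and old libraries. Only Pgd was past 1.5-fold. Pgd encodes 6-phosphogluconate dehydrogenase, an NADPH source of the pentose phosphate pathway, and stood at 14.7, 16.3 and 22.9 CPM with an old to young ratio of 1.56 (1.09 to 2.25). It stands in the lists of NRF2 targets and of NADPH supply. Counting intervals left out 1 for 16 of the 61 genes, against 21.8% of all 7340 genes, and lay above 1 for 14 of them, against 14.0%.

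By role, 5 of 27 other transferases and peroxidases had enough UMIs and 0 were past the fold, with a median log2 ratio of 0.03. Of the genes for glutathione synthesis, breakdown, transport and glutaredoxins, 12 of 22 had enough, with 0 past the fold and a median of 0.08. The median was 0.16 over 10 of 17 NRF2 pathway genes, with ratios from 0.866 to 1.56. It was 0.12 over 16 of 20 thioredoxin, peroxiredoxin and superoxide dismutase genes, 0.22 over 7 of 10 NADPH supply genes and 0.13 over 14 of 17 other selenoprotein and selenium genes. In the order of these lists, 3 of 5, 7 of 12, 8 of 10, 11 of 16, 6 of 7 and 13 of 14 genes lay above 0, as did 55.7% of all genes.

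**Figure D4:**
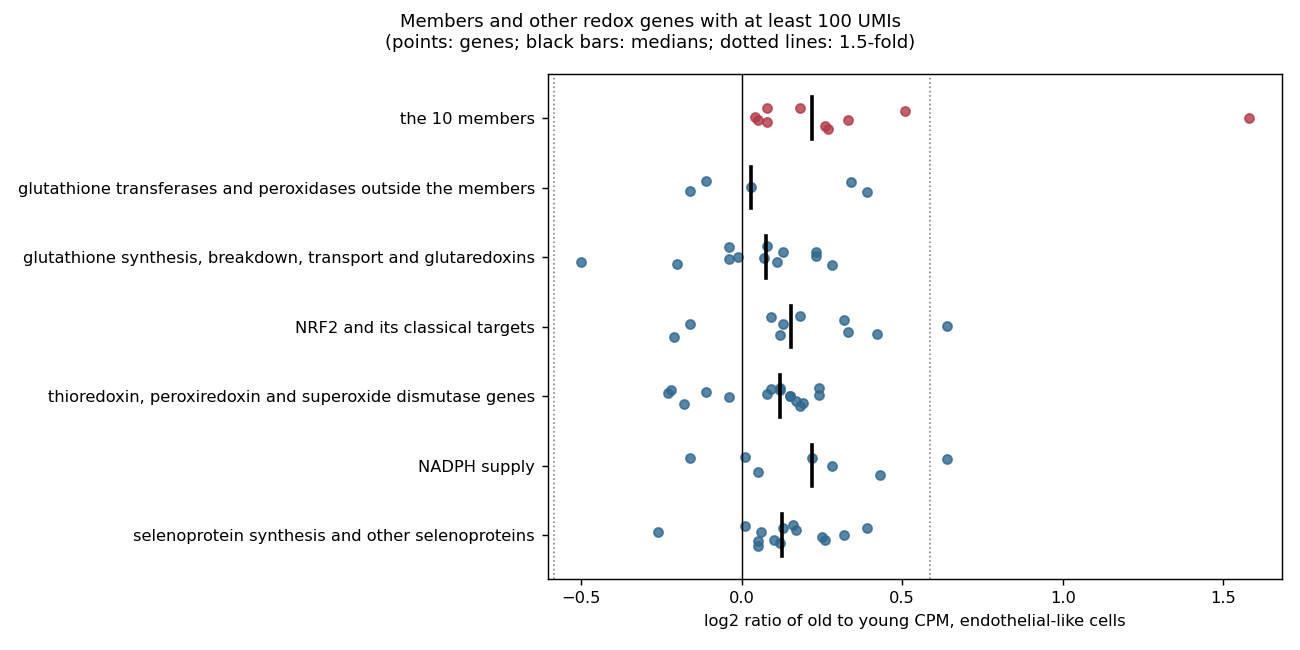
Log2 ratio of old to young CPM in endothelial-like cells for the 10 members and for the genes of 6 other redox lists with at least 100 UMIs, with the median of each list as a black bar. Mgst1, at 1.58, is the only point beyond 1, and Pgd, at 0.64, appears in 2 of the lists.

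The genes with the most similar pattern to each member were sought among 7134 genes by Pearson correlation of log2(CPM + 10) over 18 points, the 6 classes in 3 libraries. These points share libraries and cell classes, so the values are a description. Mgst1 was nearest to Syt15 (r = 0.99), Tes (0.97) and Flrt2 (0.97), and Gpx1 to Tbc1d4 (0.98), Foxp1 (0.97) and Ripor1 (0.97). Gpx4 was nearest to Nadk2, Stard10 and Gtf2f2 (0.95, 0.94 and 0.93), Mgst3 to Socs5, Pdha1 and Mylk (0.93, 0.92 and 0.89), and Gstm1 to Tcf7l2, Prdx1 and Ddah2 (0.98 each). Gsta4 was nearest to Tes, Nxn and Lfng (0.96, 0.96 and 0.95), and Gclm to Nxn, Kbtbd11 and Id2 (0.96, 0.95 and 0.95). For Gclc these were Pnrc2, Clu and Crot (0.92, 0.92 and 0.91), for Gstp1 Eif1, Eif1ad and Snrnp27 (0.92 each), and for Gsr Shld1, Usp54 and Trim37 (0.78, 0.77 and 0.77). Among the members themselves Gsta4 and Gclm were the closest pair (0.93), followed by Mgst1 and Gsta4 (0.92) and by Mgst1 and Gclm (0.90). Gpx1 and Gpx4 ran opposite (-0.61), as did Gsta4 and Gstp1 (-0.64).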

How the data were processed

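Single-cell RNA was measured in 3 libraries, 1 per age. The authors deposited raw UMI counts per gene and barcode, made with Cell Ranger 6.1.2 on mm10 per the submitters' processing notes. Cells with 500 to 6000 genes and 1 to 20% mitochondrial UMIs were kept, as the study states, and doublets were called with Scrublet in scanpy 1.11.5 (40 of 5400) in place of the study's caller. Libraries were joined in Seurat 5.3.0 (R 4.3.3) by its canonical correlation method, and cells were clustered with 2000 features, 30 components and a resolution of 0.5, leaving out 880 genes that include the members. A cluster was named from 3 or more markers found in at least 20% of its cells at 25% or more of the highest cluster's level, and called mixed where a further class had 50% of its markers. These thresholds were set after clusters were seen.

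UMIs were summed per class and library and scaled to CPM here, for classes that reached 30 cells at every age. A level of 0 is given with the limit that 3 counts allow. With 1 library per age there was no test and no p-value. Poisson, ratio and Clopper-Pearson intervals came from scipy 1.17.1. A fold was counted from 1.5 either way over genes with at least 100 UMIs in both libraries together. The ratio and thinning code was tested on simulated data. The members and lists were chosen with earlier results of these data known. All 10 members were named, with genes of other lists past 1.5-fold whose interval leaves out 1 and at least 100 UMIs, and the 3 genes most like each member. Positions came from GENCODE M21 by gene identifier, and promoters from RefSeq.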

Additional observations from a re-analysis of the deposited data

Results flagged for a closer look

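Cells outside the comparisons, in classes with too few cells in at least 1 library, held several members above the upper bound of every compared class. Gpx4 stood at 4289 CPM in 2 young, 3371 in 7 adult and 4721 in 54 old pigment epithelium cells, and Gclm at 268 CPM in the old ones. Gstm1 stood at 2630.5 CPM in 37 lens cells, 36 of which held a UMI, in the adult library. In a mixed cluster of T or NK and myeloid cells, Gpx1 stood at 471 CPM in 28 adult and 1019.8 CPM in 14 old cells. In the old cells of that cluster Gsr stood at 429 CPM (48 UMIs in 9 cells) and Mgst1 at 250.5 CPM, from 28 UMIs in 4 cells, while the 9 young cells had 0 Mgst1 UMIs. Of these 14 old cells 2 held S100a8 and S100a9, at 673 and 1098 UMIs in all, and 2 held Cd3e, against 5 of 9 young cells. The cells that make up this cluster therefore differed between libraries, and its levels are not compared by age. No explanation of these values was tested.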

How the results depend on the processing

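The Mgst1 log2 ratio of old to young in endothelial-like cells, 1.58, lay between 1.35 and 1.93 over 12 alternatives. The lower value rests on 3 young and 4 old UMIs in the 67 and 42 cells left when cells with 2 or more UMIs of markers of another class were left out. In that setting only Gpx4 kept 100 UMIs, so 0 members were past the fold and 0.38, which stands in place of the members' median of 0.22, is the value of that 1 gene. On at most 44 UMIs a library, it put the log2 ratios of Gpx1, Gstm1 and Gclm at -0.35, -0.52 and -1.06 and those of Mgst3, Gsta4, Gstp1 and Gsr at 0.79, 0.42, 0.68 and 3.26. Thinning left 6 members with enough UMIs, Mgst1 not among them, and 0 past the fold. Weighting subclusters as in the young library (1.36) and leaving out 3 subclusters led by pericyte genes or with low UMI counts (1.61) were chosen after seeing the data. Free RNA was estimated at 4.74, 8.74 and 6.66% of endothelial UMIs, and its subtraction gave 1.63. Of 544 alternative values, 488 stayed within counting error or, for class ratios, the spread over libraries, 56 moved further, and among results past 1.5-fold as reported 0 changed sign. No paired analysis was possible because each age has 1 library. Members under 100 UMIs in a class have no age ratio here.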
